A study of Mus musculus with 4 samples.

Results

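The extracellular matrix genes described here are 39 genes coding for collagens, laminins, proteoglycans, matricellular proteins and metalloproteinase inhibitors, measured in mouse thymic epithelial cells (TECs) by single-cell RNA-seq. They were chosen by symbol, and each of the 39 matched 1 gene of the 23568 found in more than 5 cells. There were 4 conditions, each measured as 1 droplet library from the pooled thymi of 3 C57BL/6 mice aged 6 weeks, so that no condition had a replicate library. Mice were wild type or deficient in Cd40, the costimulatory receptor that acts beside RANK in the medulla, and received at 4 weeks of age either control IgG or a RANKL-neutralizing antibody at 5 mg/kg. The wild-type libraries are called WT-Control and WT-RANKL-Ab and the mutant ones Cd40-/- Control, then Cd40-/- RANKL-Ab. Sets of 4 values below follow that order. Both the deletion and the antibody act on the whole animal, 2 weeks passed between injection and analysis, and the sorted cells were EpCAM+, CD45- and TER119-. The comparison of interest was that of epithelial progenitors and Ccl21a-high medullary TECs (mTECs) with the other TEC classes, and of these 2 classes between the conditions.

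Epithelial cells assemble basement membranes from laminin trimers and collagen IV, which nidogens, perlecan and agrin tie together. The interstitial matrix, made mainly by fibroblasts in most organs, holds fibrillar collagens coated by small leucine-rich proteoglycans such as decorin. Matricellular proteins such as tenascin C and SPARC bind the matrix and change how cells attach to it, and tissue inhibitors of metalloproteinases (TIMPs) limit its turnover. In the thymus, laminins, fibronectin and tenascin C are known to line the routes along which thymocytes move.

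The 4 libraries held 2082 to 10218 cells after filtering, with median depths of 6086 to 7621 UMIs (unique molecular identifiers, each counting 1 captured mRNA). Cd40 itself was counted at 110.0 and 28.8 UMIs per 1000000 UMIs (CPM) in the wild-type libraries and at 5.75 and 4.75 CPM in the Cd40-/- libraries. Cells were placed in classes by the UMIs of marker genes, none of them a matrix member. The progenitor-like class (Pdpn, Ackr4, Serpinf1, Fst, Gas1, Ces1d, Serping1, Ly6h) held 137, 488, 326 and 229 cells, and the Ccl21a-high mTEC-like class (Ccl21a, Krt5, Krt14, Trp63) held 3246, 3439, 1828 and 974 cells. The cTEC-like class held 143 to 612 cells a library, and the Aire+ mTEC-like class held 3234, 557 and 2004 cells but only 6 in Cd40-/- RANKL-Ab, so its contrast rests on 3 libraries. All 8 progenitor markers had UMIs in the progenitor-like class. They summed to 2099 to 2355 CPM there, against 559 to 1020 CPM in Ccl21a-high mTEC-like cells. The gate used this same sum, so a high value was set in advance. Of the pooled levels, Ackr4 differed most in CPM (566 against 19.8), with Gas1 next (901 against 292). Ly6h was close (78.4 against 74.6 CPM), and Fst was lower in progenitor-like cells (112 against 123 CPM). Of the 1180 progenitor-like cells 77 lay within 20% above the marker limit, as did 337 of the 9487 Ccl21a-high cells. One pair of libraries stood apart: Cd40-/- Control and Cd40-/- RANKL-Ab shared 205 kept cell barcodes, against 17 to 116 for the other 5 pairs. In 182 of these 205 pairs the Cd40-/- RANKL-Ab cell had at least 8 times the UMIs, and 72.2% of pairs fell in the same class. The shared barcodes covered 12 progenitor-like and 39 Ccl21a-high cells of Cd40-/- RANKL-Ab and 1 and 30 of Cd40-/- Control, and results are given without them where they moved.

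To show the DNA from which 4 members with a class difference are transcribed, the 150 bases before 4 start sites are printed (RefSeq, GRCm38.p6, 5′ to 3′ on the strand of the gene). Prelp (chr1:133921402-133921551, minus strand) and Fmod (chr1:134037104-134037253, plus strand) are neighbours, 115839 bases apart, and were both high in progenitor-like cells. Matn1 (chr4:130944235-130944384, plus strand) and Col6a2 (chr10:76623631-76623780, minus strand, the upstream one of its 2 listed starts) were high in Ccl21a-high mTEC-like cells. Capitals mark the single match to the 4 motifs searched.
Prelp: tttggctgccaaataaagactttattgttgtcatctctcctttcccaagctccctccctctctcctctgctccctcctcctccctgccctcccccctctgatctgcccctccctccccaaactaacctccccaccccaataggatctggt
Fmod: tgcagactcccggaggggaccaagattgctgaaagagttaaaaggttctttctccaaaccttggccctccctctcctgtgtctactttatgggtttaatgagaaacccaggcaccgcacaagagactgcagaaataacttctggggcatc
Matn1: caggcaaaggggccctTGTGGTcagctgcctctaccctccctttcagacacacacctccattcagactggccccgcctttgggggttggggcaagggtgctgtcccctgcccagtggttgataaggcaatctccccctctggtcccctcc
Col6a2: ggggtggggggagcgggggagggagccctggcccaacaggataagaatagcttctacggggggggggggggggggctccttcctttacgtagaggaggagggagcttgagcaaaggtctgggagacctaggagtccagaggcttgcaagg
These were the TATA box and the AP-1, RUNX and TEAD motifs, none of which contains another, read on both strands of the 250 bases before each start. The table held 34 starts for 28 of the 39 members. The TATA box, TATAAA, was present in 14.7% of these member windows and in 12.4% of all 32851 windows. The AP-1 motif was searched as TGANTCA and found in 5.88% and 6.75% of them. For RUNX, read as TGTGGT, the shares were 5.88% and 14%. The TEAD letters GGAATG were present in 14.7% and 12.6%. These matches describe the letters only, and no binding was measured here.

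Matrix transcripts took a larger part of the mRNA in progenitor-like and Ccl21a-high mTEC-like cells than in cTEC-like and Aire+ mTEC-like cells. The 39 members together made up 0.710%, 0.792%, 0.571% and 0.603% of all UMIs in progenitor-like cells and 0.369%, 0.331%, 0.557% and 0.588% in Ccl21a-high mTEC-like cells. In cTEC-like cells, the epithelium of the cortex, the sums were 0.113% to 0.189%, and in Aire+ mTEC-like cells, which present tissue antigens, 0.0891% to 0.118%. Keratinocyte-like cells gave 0.185%, 0.191%, 0.215% and 0.595%, the last from 30 cells and above the Ccl21a-high value. Thymocyte-like cells of the same libraries, which should make little matrix, showed 0.0568% to 0.100%, taken here as a background level. Whether it came from free RNA or from TECs caught with thymocytes was not tested. Over all epithelial classes, 22 of the 39 members had their highest pooled level in progenitor-like cells and 6 in Ccl21a-high mTEC-like cells. Keratinocyte-like and cTEC-like cells led for 3 members each, and 5 members were highest elsewhere. The highest class was found for the members only, so these counts have no share over all genes beside them.

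**Figure D1:**
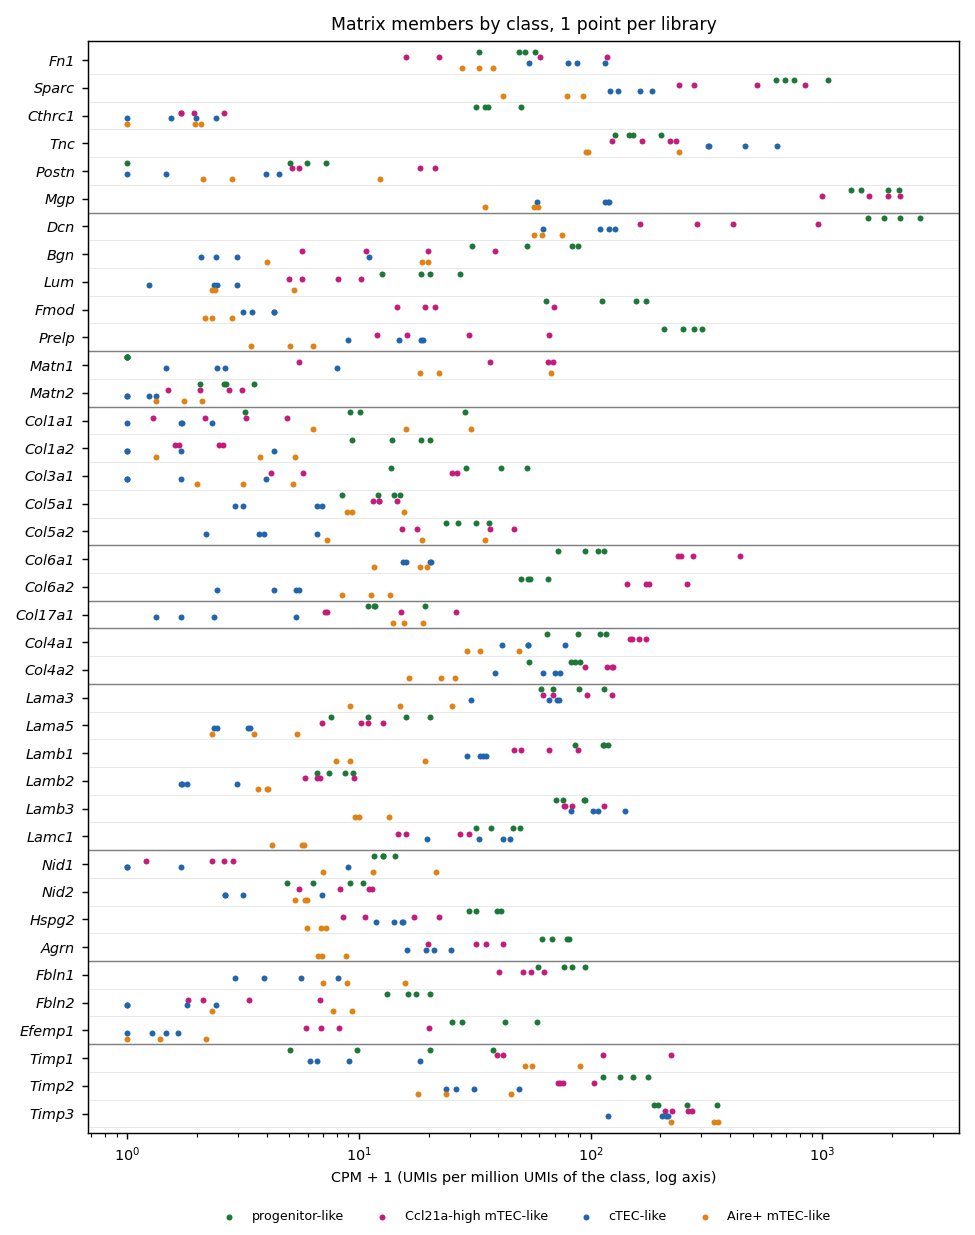
Level of each matrix member in 4 TEC classes, as CPM + 1 on a log axis, with 1 point per library (3 for Aire+ mTEC-like cells) and lines between groups of genes with one role. Dcn, Mgp and Sparc reach the highest levels, Prelp and Cthrc1 separate progenitor-like cells from the other classes, Col6a1 and Col6a2 are highest in Ccl21a-high mTEC-like cells, and Tnc is highest in cTEC-like cells.

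The first contrast set progenitor-like against Ccl21a-high mTEC-like cells, as sums per class and library with library as a block (edgeR quasi-likelihood test, called at an adjusted p under 0.05 and at least 2-fold). Of the 38 members tested, 12 were higher and 4 were lower in progenitor-like cells, and 22 were not called. Among all 14974 genes tested, 14.5% were called, 6.6% higher and 7.94% lower, against 42.1% of the members. The median log2 fold change was 0.41 over the members and -0.03 over all genes. Matn2, a matrilin of connective tissue, was the member not tested, with 0.502 to 2.54 CPM in the 2 classes.

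Decorin, Prelp and fibromodulin, small leucine-rich proteoglycans that bind collagen fibrils, were among the members that rose in progenitor-like cells. Decorin (Dcn) stood at 2154, 2633, 1581 and 1846 CPM there and at 162, 287, 412 and 953 CPM in Ccl21a-high mTEC-like cells. The progenitor-like level was higher in 4 of 4 libraries, by 1.94-fold in Cd40-/- RANKL-Ab and by 13.3-fold in WT-Control, and the fitted log2 fold change was 2.43 ± 0.62 (SE; edgeR adjusted p = 0.0046). Without WT-Control, or without Cd40-/- Control, this call was lost. Prelp, which links basement membranes to the tissue beneath, read 278, 300.0, 206 and 249.6 CPM in progenitor-like cells. Its Ccl21a-high levels were 10.9, 15.1, 29.0 and 65.3 CPM, so that the 2 groups did not overlap (log2 fold change 3.27 ± 0.48, edgeR adjusted p = 8.1e-06). Fibromodulin (Fmod), a regulator of collagen fibril width, gave 156, 173, 63.0 and 111 CPM against 13.6, 18.3, 20.2 and 68.8 CPM (2.24 ± 0.36), the groups overlapping between 63.0 and 68.8 CPM. Biglycan (Bgn) was called as well, at 2.01 ± 0.49, although it was lower in progenitor-like cells of Cd40-/- Control (29.8 against 37.5 CPM) and the call was lost without WT-RANKL-Ab. Lumican (Lum) was higher in 4 of 4 libraries without passing the test (1.38 ± 0.52, edgeR adjusted p = 0.057). By cell, after thinning each to 1000 UMIs, 73.5% of progenitor-like cells held a Dcn UMI, against 18.9% of Ccl21a-high, 7.56% of cTEC-like and 3.34% of thymocyte-like cells. For Prelp the thinned shares were 22.9%, 2.16%, 1.07% and 0.643%. Before thinning, Dcn was seen in 93.2%, 43.8%, 32.9% and 6.84% of the same classes.

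Cthrc1, a secreted glycoprotein that limits collagen deposition, had the widest class difference among the members that rose. It read 49.1, 35.1, 30.9 and 34.0 CPM in progenitor-like cells and 0.941, 0.711, 0.708 and 1.62 CPM in Ccl21a-high mTEC-like cells. The libraries differed by 20.9-fold to 52.2-fold (log2 fold change 5.15 ± 0.59, edgeR adjusted p = 5.5e-08), and the next highest epithelial class, the neuroendocrine-like one, had a pooled level of 6.94 CPM. Sparc, a collagen-binding matricellular protein, stood at 687, 1062, 630.1 and 753 CPM against 239, 278, 523 and 842 CPM. Its groups overlapped through Cd40-/- RANKL-Ab, and the difference did not pass the test (0.89 ± 0.68, edgeR adjusted p = 0.41). Matrix Gla protein (Mgp), an inhibitor of mineral deposition, was abundant in both classes, at 2138, 1929, 1467 and 1331 CPM and 1591, 994, 2159 and 1917 CPM, with a log2 fold change of -0.05 ± 0.52. Fibronectin (Fn1), tenascin C (Tnc) and periostin (Postn) were not called either, at 0.16 ± 0.42, -0.34 ± 0.27 and -1.56 ± 0.72.

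Among the fibrillar collagens, the 2 chains of collagen I were called higher in progenitor-like cells at low levels. Col1a2 read 12.8, 17.5, 8.28 and 19.3 CPM against 0.599, 0.669, 1.59 and 1.498 CPM (3.86 ± 0.62). Col1a1 read 27.8, 8.12, 2.21 and 9.13 CPM against 1.15, 0.293, 3.90 and 2.25 CPM (2.84 ± 0.59), and was lower in the progenitor-like cells of Cd40-/- Control. Col3a1 (1.49 ± 0.62), Col5a1 (-0.11 ± 0.31) and Col5a2 (0.15 ± 0.46) were not called. In progenitor-like cells the fibroblast marker sum and Col1a1 were highest in WT-Control, and Col1a2 was highest in Cd40-/- RANKL-Ab. The 10 fibroblast markers, which include Pdgfra, Pdgfrb, Dpt and Pi16, all had UMIs in both classes. They summed to 92.9, 26.3, 22.6 and 48.2 CPM in progenitor-like cells and to 23.7, 28.7, 34.2 and 29.3 CPM in Ccl21a-high mTEC-like cells, where Prrx1 alone made up 19.0 of 28.0 CPM. The sum was lower in progenitor-like cells of 2 libraries (Cd40-/- Control, WT-RANKL-Ab). Pooled over libraries, only Prrx1 was lower there, at 4.10 against 19.0 CPM. Every other marker of the list was higher in progenitor-like cells, such as Dpt (7.82 against 0.766 CPM) and Pi16 (4.87 against 0.255 CPM). Col1a2 was higher in progenitor-like cells in 4 of 4 libraries. Whether fibroblast RNA adds to either chain was not tested. Leaving out every cell with a UMI of a fibroblast, endothelial, mural, mesothelial, cartilage, myeloid or B cell marker took Col1a1 from 73 UMIs over the progenitor-like class to 0, although the class kept 6230688 of its 7798375 UMIs, and Col1a2 from 119 to 45 UMIs. That left Col1a2 at 7.22 CPM in progenitor-like cells (15.3 CPM before) against 1.28 CPM in Ccl21a-high mTEC-like cells, with no test under this setting. In Ccl21a-high mTEC-like cells Col1a1 then had 18 UMIs (1.15 CPM, 1.44 CPM before). The members called came to 10 of 30 tested, 6 of them higher. Dcn, Prelp, Fmod and Cthrc1 remained called, at 1.79, 2.53, 1.37 and 4.58. Of these markers, Rgs5 was at 13.6 CPM in progenitor-like and 494.9 CPM in Ccl21a-high mTEC-like cells, and Lyz2 at 15.4 and 29.6 CPM. With Rgs5 and Lyz2 taken off the marker list, 16 of 35 tested were called (11 higher). Col1a2 was among them at 2.84 ± 0.65 (edgeR adjusted p = 0.001), and Col1a1 had 3 UMIs in the progenitor-like class. Postn, not called in the main setting, was called lower in progenitor-like cells here, at -5.43 ± 0.87. In these summed counts fewer cells of a type and less RNA per cell cannot be told apart.

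The other members called higher belong to the basement membrane and its linkers. Nidogen 1 (Nid1), which joins laminin to collagen IV, stood at 11.7, 11.7, 13.3 and 10.7 CPM in progenitor-like cells and 1.33, 0.209, 1.86 and 1.62 CPM in Ccl21a-high mTEC-like cells (3.55 ± 0.74). Fibulin 2 (Fbln2), which binds laminins and fibronectin, read 19.2, 15.3, 16.6 and 12.2 CPM against 2.35, 0.836, 5.76 and 1.12 CPM (2.93 ± 0.48), and Efemp1, another fibulin, reached 2.10 ± 0.47. For all 3 genes the groups did not overlap. The heparan sulfate proteoglycans perlecan (Hspg2) and agrin (Agrn) were called at 1.31 ± 0.29 and 1.10 ± 0.27, both lost without WT-RANKL-Ab. Of the 6 laminin chains none was called. Lamc1 (0.87 ± 0.25) passed the test under 2-fold, while Lama3, Lama5, Lamb1, Lamb2 and Lamb3 lay between -0.20 and 0.65 without passing it. The metalloproteinase inhibitor Timp2 likewise passed under 2-fold (0.70 ± 0.24), and Timp3, Nid2, Fbln1 and Col17a1 did not pass.

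Ccl21a-high mTEC-like cells were higher in 4 called members, the collagen VI chains, Matn1 and Timp1. Collagen VI forms beaded microfilaments beside basement membranes. Col6a1 read 238, 244, 438 and 277 CPM in Ccl21a-high mTEC-like cells and 71.6, 93.2, 113 and 107 CPM in progenitor-like cells, and Col6a2 read 172, 142, 259 and 178 CPM against 49.1, 52.6, 53.6 and 64.4 CPM. The 2 genes lie 85161 bases apart on chromosome 10, and their levels differed without overlap (log2 fold change -1.77 ± 0.41 and -1.93 ± 0.44, edgeR adjusted p = 0.0021 and 0.0015), although both calls were lost without Cd40-/- Control. Matn1, cartilage matrix protein, gave 67.8, 64.6, 36.0 and 4.49 CPM in Ccl21a-high mTEC-like cells and no UMI in any of the 4 progenitor-like sums. Against the limit of 3 UMIs over that class, 0.385 CPM, the pooled level was at least 139-fold lower in progenitor-like cells. Cartilage markers moved the same way, with 5 of 5 seen in Ccl21a-high mTEC-like cells at a sum of 5.87 to 19.3 CPM and 3 of 5 in progenitor-like cells at 1.52 to 3.31 CPM, where Acan and Col2a1 were at 0. Without the cells carrying non-epithelial markers, cartilage markers included, Matn1 was at 20.4 CPM in Ccl21a-high mTEC-like cells and had no UMI in progenitor-like cells. Timp1 read 112, 38.4, 220.4 and 40.9 CPM against 19.2, 8.77, 37.0 and 4.06 CPM (-2.66 ± 0.47). The collagen IV chains Col4a1 (-0.88 ± 0.25) and Col4a2 (-0.70 ± 0.23), which start head to head on chromosome 8, passed the test under 2-fold and were lower in progenitor-like cells in 4 of 4 libraries.

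**Figure D2:**
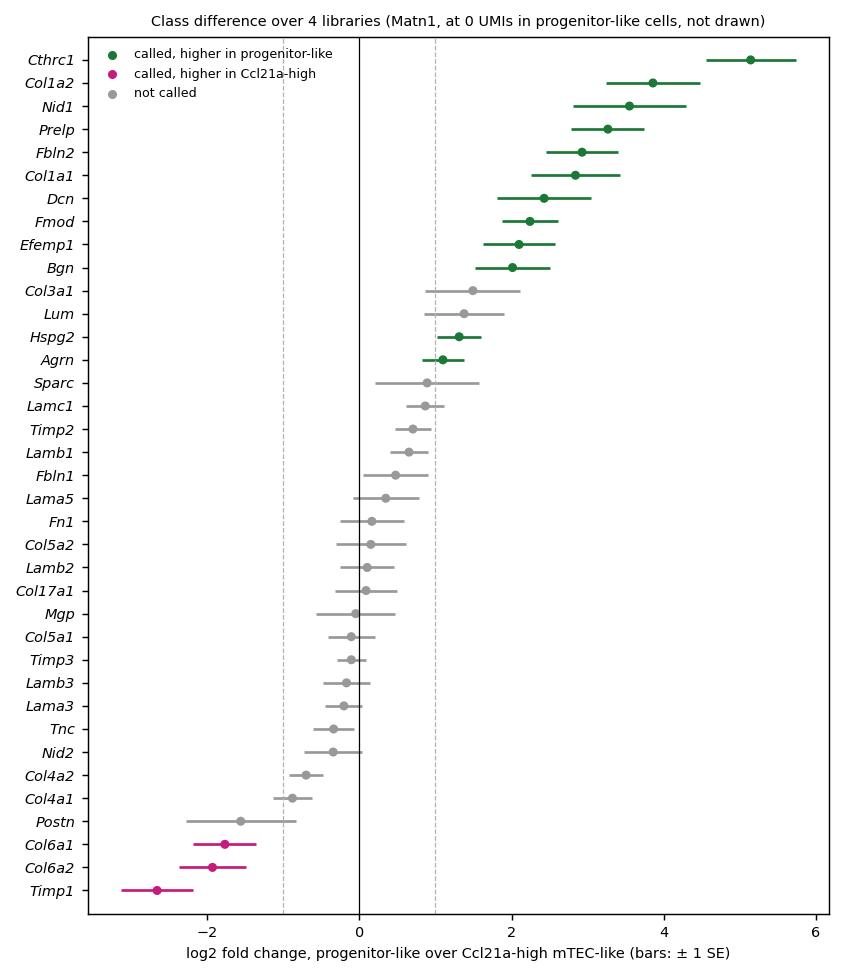
Log2 fold change of the matrix members in progenitor-like against Ccl21a-high mTEC-like cells, sorted by size, with bars of 1 SE from the edgeR fit over 4 libraries, colours for called members and dashed lines at 2-fold. Cthrc1 lies farthest to the right at 5.15, Col6a1, Col6a2 and Timp1 lie to the left, and the laminins lie between the dashed lines, while Matn1 is not drawn because it had no UMI in progenitor-like cells.

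Genes around the members were read from 5 further lists in the same contrast, in which 6.6% of all genes were higher and 7.94% lower. Nothing is read from the receptor, processing, protease and TGF-beta lists beyond their counts. Of 35 other matrix proteins 30 were tested, with 15 higher and 2 lower in progenitor-like cells and a median log2 fold change of 1.15. The collagen IV chain Col4a6 (4.69), osteoglycin (Ogn, 4.57) and asporin (Aspn, 3.71) had the largest values among those called. Of 16 matrix receptors tested, 2 were higher and 2 lower, among them the integrin chains Itga1 (2.23), Itgb5 (-2.27) and Itgb8 (-1.92). Collagen processing enzymes had 2 higher and 3 lower of 15, with the transglutaminase Tgm2 at 2.67, Adamts2 at 1.56 and the prolyl hydroxylase P4ha2 at -1.62. Matrix proteases had 1 higher and 5 lower of 13, led by Htra1 (-2.68), Mmp15 (-2.57) and Mmp9 (-2.55). Of 15 genes of the TGF-beta axis 2 were higher and 3 lower, with Tgfbr3 at 2.32 and Tgfbi at -3.62 among those called.

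Against cTEC-like cells, most members were higher in progenitor-like cells, with Tnc and Matn1 as the exceptions among those called. The test called 26 of 38 members higher and 2 lower, 73.7% against 20.4% of all genes (9.72% higher and 10.7% lower), and the median log2 fold change was 2.45 over the members and -0.05 over all genes. Efemp1 had the largest called value. It read 57.7, 41.9, 24.3 and 26.9 CPM in progenitor-like cells and 0, 0.272, 0.474 and 0.659 CPM in cTEC-like cells (6.39 ± 0.72, edgeR adjusted p = 2.7e-08). Fmod was at 2.16, 2.44, 3.32 and 3.29 CPM in cTEC-like cells (5.42 ± 0.49), and Col3a1 at 0, 0, 0.711 and 2.96 CPM (5.28 ± 0.90). Cthrc1, Bgn, Fbln2 and Dcn followed at 5.23, 4.62, 4.58 and 4.27. Tnc stood apart from the other members, at 323, 464, 321 and 635 CPM in cTEC-like cells against 151, 199.7, 126 and 146 CPM in progenitor-like cells, without overlap (-1.58 ± 0.27). Matn1 was at least 7.38-fold lower in progenitor-like cells, with 35 UMIs over all cTEC-like cells. Fn1 and Lamb3, whose pooled levels were also highest in cTEC-like cells, did not pass the test against progenitor-like cells (-0.84 ± 0.42 and -0.52 ± 0.32). The calls of Matn1 and Nid1 were lost without WT-RANKL-Ab and that of Sparc without either control library.

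Col6a2 had the largest called difference between Ccl21a-high mTEC-like and cTEC-like cells. Here 22 members were higher and 2 lower, 63.2% against 24.7% of all genes (12% higher and 12.7% lower), with median log2 fold changes of 1.56 and 0.01. Col6a2 was at 1.44, 4.35, 4.50 and 3.29 CPM and Col6a1 at 14.4, 14.9, 19.2 and 19.4 CPM in cTEC-like cells, giving 5.71 ± 0.57 and 4.15 ± 0.47. Among the other called members were Efemp1 (4.29), Mgp (3.98), Matn1 (3.91), Col3a1 (3.79), Fbln1 (3.58) and Timp1 (3.44). Mgp read 57.7, 117, 119 and 115 CPM in cTEC-like cells, every value below the lowest Ccl21a-high level of 994 CPM. Tnc (-1.24 ± 0.26) and Fn1 (-1.004 ± 0.40) were lower, and the Fn1 call was lost on leaving out WT-Control, WT-RANKL-Ab or Cd40-/- Control. Without Cd40-/- Control the calls of Bgn, Dcn and Fbln2 were lost as well, Dcn and Fbln2 also without Cd40-/- RANKL-Ab and Fbln2 without WT-Control. The Fbln2 call was also lost without the barcodes shared between libraries, which left 23 members called.

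Against Aire+ mTEC-like cells, 19 members were higher in Ccl21a-high mTEC-like cells and 4 were lower, 60.5% beside 38.8% of all genes, of which 10.5% were higher and 28.2% lower. Mgp read 58.4, 33.9 and 56.0 CPM in the 3 Aire+ sums, a log2 fold change of 4.81 ± 0.69 (edgeR adjusted p = 2.2e-06). Col6a1, Col6a2, Fmod, Efemp1 and Lamb3 were called at 4.06, 4.05, 3.56, 3.14 and 2.70. All of Lama3, Lama5, Lamb1, Lamb3 and Lamc1 and both collagen IV chains were higher here, at 1.48 to 2.70. Nid1 was lower in Ccl21a-high mTEC-like cells than in Aire+ cells, where it stood at 10.5, 5.98 and 20.4 CPM (-3.48 ± 0.75). Col1a1 (-3.41 ± 0.58), Col1a2 (-1.64 ± 0.64) and Fbln2 (-1.19 ± 0.49) were lower too. Fibroblast markers summed to 62.0, 24.6 and 77.0 CPM in the Aire+ sums, lowest in the same library as Col1a1 (14.9, 5.31 and 29.3 CPM). Without the cells carrying non-epithelial markers Col1a1 was still called at -3.19 (edgeR adjusted p = 0.006), with 13.8 CPM in Aire+ mTEC-like cells, and at -3.31 with Rgs5 and Lyz2 off the marker list. The Fbln2 call was lost on leaving out any 1 of the 4 libraries, Cd40-/- RANKL-Ab included, whose other classes share in the estimate of the spread. Those of Col1a2, Col3a1 and Sparc were lost without WT-Control or Cd40-/- Control, Col1a2 also without Cd40-/- RANKL-Ab, and those of Dcn and Lama5 without Cd40-/- Control, which left 17 members called.

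Between conditions there was 1 library each, so levels were compared as log2 ratios of CPM to WT-Control with exact conditional binomial intervals (95%), which cover counting error only. The 3 ratios share the WT-Control library. Members were counted when they differed by more than 2-fold and had at least 20 UMIs over the pair of libraries. In progenitor-like cells few members did. With RANKL-Ab in wild-type mice they were 2 of 35, both lower (5.71% of members, against 8.52% of all genes, 5.23% higher and 3.29% lower). In Cd40-/- Control they were 5 of 36, all lower (13.9%, against 15.8% of all genes, 12.5% higher and 3.34% lower), and in Cd40-/- RANKL-Ab 4 of 35, all lower (11.4%, against 9.81% of all genes, 6.69% higher and 3.12% lower). Col1a1 was lower in all 3, by log2 ratios of -1.77, -3.65 and -1.60, with 26, 25, 4 and 18 UMIs behind its levels. Fibroblast markers were lower with it, at 92.9 CPM in WT-Control and 26.3, 22.6 and 48.2 CPM in the others, and without the cells carrying non-epithelial markers Col1a1 had no UMI in the class. Against WT-Control Timp1 was lower in both RANKL-Ab libraries, at -1.13 (-2.05 to -0.19) and -2.24 (-3.65 to -0.97), the second ratio holding the deletion as well. Its level was 37.0 CPM in Cd40-/- Control and 4.06 CPM in Cd40-/- RANKL-Ab. In Cd40-/- Control, Col3a1 (-2.04), Bgn (-1.55), Fmod (-1.31) and Efemp1 (-1.25) were lower, and in Cd40-/- RANKL-Ab Lama5 (-1.54) and Efemp1 (-1.10). Without the shared barcodes Efemp1 was no longer past 2-fold in Cd40-/- RANKL-Ab, leaving 3 members. The members with most UMIs, Dcn and Mgp, stayed within 2-fold in all 3, Dcn at 0.29, -0.45 and -0.22 and Mgp at -0.15, -0.54 and -0.68. Of the progenitor-like cells, 78.8%, 96.3%, 81.9% and 98.3% fell in 1 cluster of the unsupervised grouping.

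Ccl21a-high mTEC-like cells carried more of several interstitial matrix transcripts in the Cd40-/- libraries than in WT-Control. Dcn stood at 162 and 287 CPM in the wild-type and 412 and 953 CPM in the Cd40-/- libraries, ratios to WT-Control of 0.83, 1.35 and 2.56 on the log2 scale. Fn1 read 15.0, 21.1, 59.7 and 117 CPM, with log2 ratios of 1.995 (1.81 to 2.19) for Cd40-/- Control and 2.96 (2.78 to 3.14) for Cd40-/- RANKL-Ab. Prelp read 10.9, 15.1, 29.0 and 65.3 CPM and Sparc 239, 278, 523 and 842 CPM. In Cd40-/- Control 13 of 39 members were more than 2-fold higher and none lower (33.3%, against 13.2% of all genes, 5.62% higher and 7.53% lower). Beside those above they included Col3a1 (2.44), Bgn (1.95), Col1a1 (1.75), Col5a2 (1.45), Col1a2 (1.41) and Fbln2 (1.29). In Cd40-/- RANKL-Ab 12 members were higher and 4 lower (41%, against 19.6%, with 6.5% of all genes higher and 13.1% lower). Prelp (2.58), Col3a1 (2.36), Fmod (2.34), Col17a1 (2.02), Efemp1 (1.95) and Postn (1.94) were among the higher. The median ratio with 1 CPM added was 0.54 and 0.57 over the members in these libraries, against 0.10 and 0.07 over all genes. Part of the class also passed the progenitor-like limit. Without those cells 2568, 2836, 1280 and 528 of 3246, 3439, 1828 and 974 cells were kept. The medians then became 0.43 and 0.37, against 0.11 and 0.08 over all genes. Of 37 members tested in each, 13 and 16 were past 2-fold. Of all genes, 747 of 13966 were higher and 950 lower, and then 850 of 13630 higher and 1545 lower. In cells without UMIs of non-epithelial markers the medians were 0.32 and 0.13, against 0.15 and 0.09 over all genes. The second thus lay near the value for all genes. The members with most UMIs were not all higher in the Cd40-/- libraries, since Mgp read 1591, 994, 2159 and 1917 CPM and Timp3 224, 273, 261 and 207 CPM.

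RANKL-Ab in wild-type mice gave another set in Ccl21a-high mTEC-like cells, with 1 member higher and 6 lower of 39 (17.9%, against 12% of all genes, 2.96% higher and 9.07% lower). Postn, periostin, read 4.53 and 20.4 CPM in WT-Control and WT-RANKL-Ab, a log2 ratio of 2.17 (1.86 to 2.48), and again 4.16 and 17.4 CPM in the Cd40-/- pair. Timp1 showed the opposite order in both genotypes, 112 and 38.4 CPM in wild type and 220.4 and 40.9 CPM in Cd40-/- cells. Nid1 (-2.67), Col1a1 (-1.98), Fbln2 (-1.49), Matn2 (-1.09) and Bgn (-1.05) were also lower with RANKL-Ab in wild type, at levels under 10 CPM. Matn1 was lower in Cd40-/- RANKL-Ab than in WT-Control, at 4.49 against 67.8 CPM (-3.91, interval -4.43 to -3.44), as were Nid2 (-1.16) and Fbln2 (-1.07). Without the shared barcodes the counts of members past 2-fold were 7, 14 and 17 in place of 7, 13 and 16.

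**Figure D3:**
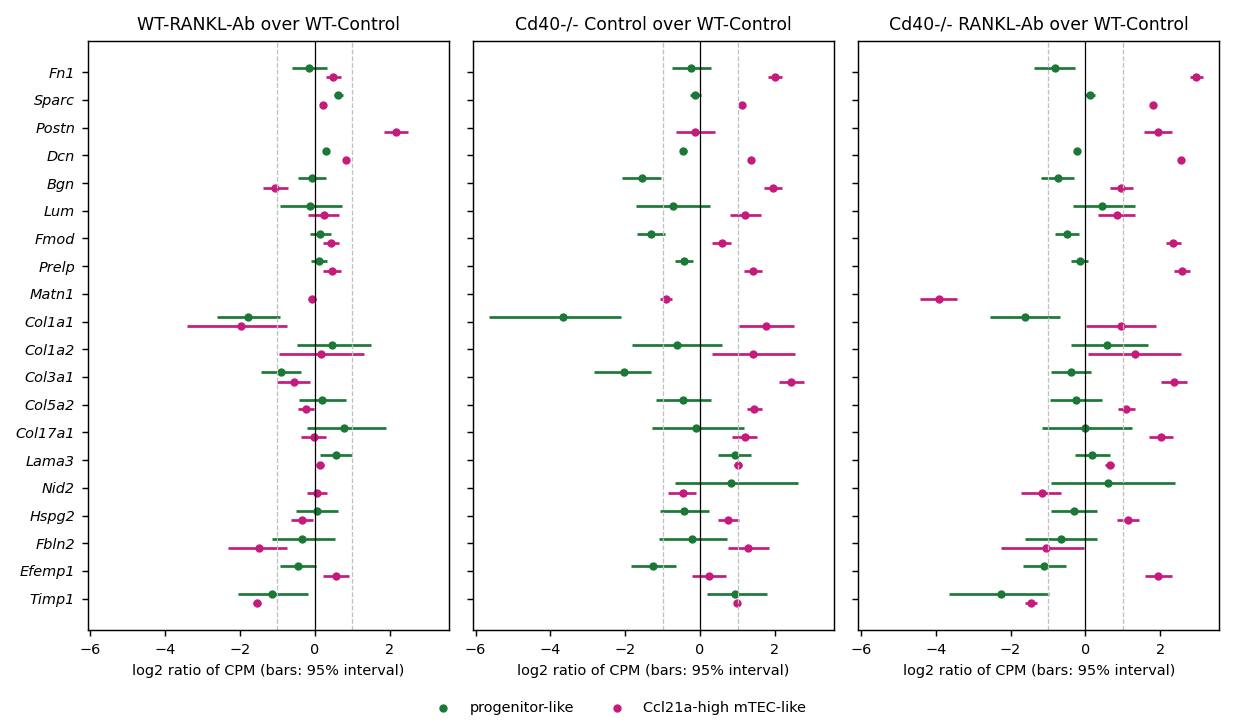
Log2 ratio to WT-Control of the matrix members past 2-fold in the Ccl21a-high cells of either Cd40-/- library, in progenitor-like and in Ccl21a-high mTEC-like cells, with 1 panel per condition and exact 95% intervals that cover counting error only. In Ccl21a-high mTEC-like cells Dcn, Fn1 and Prelp lie to the right in both Cd40-/- libraries and Matn1 far to the left in Cd40-/- RANKL-Ab, and in progenitor-like cells Col1a1 lies to the left in all 3.

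The clusters that made up the Ccl21a-high class differed between libraries. Cluster 4 (led by Gpx3, Mgp and Igfbp2) held 20.4%, 31.5%, 33.6% and 56.1% of the class, cluster 1 (Stmn2, Matn1) 18.2%, 41.8%, 7.17% and 8.32%, and cluster 5 (Ccl11, Ifit3, Isg15) 43.0%, 10.2%, 31.9% and 1.13%. Cluster 10, led by the immediate early genes Atf3, Fos and Dusp1, held 7.55%, 4.10%, 14.1% and 17.8%. Smaller shares fell in cluster 6 (led by Ackr4, Dcn, Serpinf1 and Prelp), at 0.246%, 1.34%, 1.75% and 5.65%. Cluster 7, with Fn1 among its leading genes, held 0.062%, 2.79%, 1.204% and 4.11%. How far clusters 6 and 7 bear on the Dcn, Prelp and Fn1 levels of the class was not tested. Within cluster 4 Dcn still read 307, 439.9, 631 and 1039 CPM, within cluster 1 74.7, 132, 224 and 361 CPM, and within cluster 10 134, 453, 309 and 997 CPM. Fn1 within cluster 4 was 25.6, 13.5, 73.7 and 93.5 CPM, and Prelp 21.8, 21.6, 40.2 and 75.3 CPM. Matn1 differed between clusters too, at 166, 109, 141 and 32.0 CPM in cluster 1 and 5.31, 2.63, 2.25 and 0.223 CPM in cluster 4, and was lowest in Cd40-/- RANKL-Ab in clusters 1, 4 and 10. Pooled over the libraries, Timp1 was at 30.1, 100.5, 168.7 and 103.7 CPM in clusters 1, 4, 5 and 10. Postn was at 26.0, 5.89, 2.19 and 12.8 CPM there. How far the cluster shares bear on the Timp1 and Postn differences with RANKL-Ab was not tested. Counted in cluster 4 alone, 5, 11 and 10 members of 34, 34 and 33 tested were past 2-fold in place of 7, 13 and 16, against 6.49%, 10.5% and 11.1% of all genes, with Dcn at 1.76, Fn1 at 1.87 and Prelp at 1.79 in Cd40-/- RANKL-Ab. Other values moved beside these results. Rgs5, a gene of mural cells, gave most of a mural sum of 722, 412, 498 and 83.4 CPM in the class, while the fibroblast sum was 23.7, 28.7, 34.2 and 29.3 CPM. Leaving out cells with any non-epithelial marker UMI kept 523, 974, 708 and 592 Ccl21a-high cells. Then 4, 5 and 5 members of 33, 34 and 33 tested were past 2-fold. These were 12.1%, 14.7% and 15.2% of the members, against 8.73%, 9.5% and 10.1% of all genes. Dcn was at 0.83 and 1.76 in the Cd40-/- libraries. With Rgs5 and Lyz2 allowed, the counts were 5, 9 and 14 and Dcn stood at 1.19 and 2.42.

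**Figure D4:**
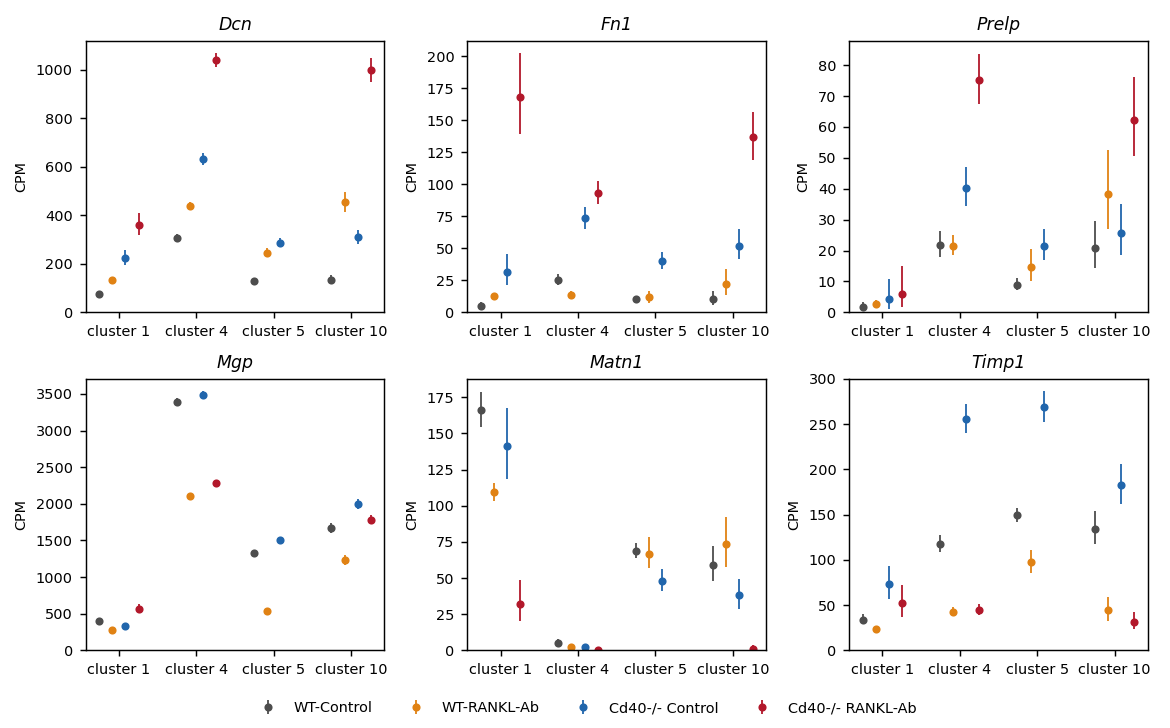
Levels of Dcn, Fn1, Prelp, Mgp, Matn1 and Timp1 in Ccl21a-high mTEC-like cells within clusters 1, 4, 5 and 10, as CPM with 1 point per library and 95% counting intervals. Sums of fewer than 20 cells are not drawn. Dcn is highest in Cd40-/- RANKL-Ab in each cluster drawn for that library, and Matn1 is highest in cluster 1.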

How the data were processed

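Single-cell libraries were made from sorted TECs of 4 conditions, 1 library each. Per the labels' processing notes and the file headers, the authors aligned reads to mm10 with Cell Ranger (version 5.1 in the notes, 5.0.1 in the headers) and deposited filtered matrices of raw UMI counts per gene and barcode. From these counts, barcodes under 200 genes or over 25% mitochondrial UMIs were removed. Classes were gated on summed UMIs of fixed markers per 10000 UMIs (at least 3 marker UMIs, and a limit of 10 for progenitor-like and 100 for Ccl21a-high mTEC-like cells). No doublet caller was run, and cells within the gates of cTEC-like cells and thymocytes, Ccl21a-high or progenitor-like cells, or of progenitor-like and Aire+ cells, were left out. Other overlaps went to the class gated first, so Ccl21a-high cells could also pass the progenitor-like limit. No authors' annotation was used, so class shares and names are rebuilt and may differ from those of the study. Clusters came from scanpy (1.11.5, Leiden, resolution 1, 30 components, 2000 variable genes without the members).

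UMIs were summed per class and library where at least 20 cells were present. Classes were compared with edgeR (4.0.16, TMM factors, filterByExpr, quasi-likelihood test, library as a block, Benjamini-Hochberg over all genes tested), with R 4.3.3. The 4 sums of a class come from 4 conditions, so their spread holds condition differences as well as sampling. The p-values measure agreement over these 4 libraries. All epithelial classes of at least 20 cells were fitted together, so the estimate of the spread draws on the other classes too. Conditions were compared without a test. Shares and ratios have exact 95% intervals, and a level of 0 is given the limit of 3 UMIs. The script was tested on simulated data. Depth behind the class sums was 936213 to 3079982 UMIs for progenitor-like and 8010141 to 23920315 UMIs for Ccl21a-high mTEC-like cells.

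Members and lists were chosen with earlier results of these data known. Named in each contrast were the 8 members with the largest called log2 fold changes and those called against the main direction, per condition the 8 largest past 2-fold whose interval leaves out 0 and the most abundant member of each role, and the 3 largest called of each further list, except for an item that is not reported here. Other members were named to account for all, after their values were seen. Alternatives were other gates, clusters, mitochondrial limits, depth minimums, marker-free cells, scalings, filters and DESeq2 (1.42.0).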

Additional observations from a re-analysis of the deposited data

Results flagged for a closer look

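For 11 pairs of member and condition, the log2 ratio to WT-Control pointed one way in Ccl21a-high mTEC-like cells and the other way in progenitor-like cells, with both counting intervals off 0 and more than 2-fold in at least 1 class. This rule was applied to the members only, so how often other genes meet it is not known. Each condition is 1 library, so the difference between the classes was not tested. It is given as the Ccl21a-high ratio minus the progenitor-like ratio. In Cd40-/- Control it was 5.41 for Col1a1 (1.75 against -3.65, the latter from 4 UMIs), 4.48 for Col3a1 (2.44 against -2.04) and 3.51 for Bgn (1.95 against -1.55). There it was 1.88 for Fmod (0.57 against -1.31), 1.83 for Prelp (1.40 against -0.43) and 1.80 for Dcn (1.35 against -0.45). In Cd40-/- RANKL-Ab it was 3.79 for Fn1 (2.96 against -0.82), 3.05 for Efemp1 (1.95 against -1.10), 2.84 for Fmod (2.34 against -0.50), 2.78 for Dcn (2.56 against -0.22) and 2.57 for Col1a1 (0.96 against -1.60). The Ccl21a-high class drew more of its cells from cluster 4 in both Cd40-/- libraries (33.6% and 56.1%, against 20.4% in WT-Control), and within that cluster the Ccl21a-high ratios in Cd40-/- RANKL-Ab were 1.87 for Fn1, 1.76 for Dcn, 0.95 for Efemp1 and 0.83 for Fmod.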

How the results depend on the processing

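The counts of members called between classes were 16, 28, 24 and 23 (progenitor-like against Ccl21a-high mTEC-like and against cTEC-like, then Ccl21a-high against cTEC-like and against Aire+ mTEC-like). Without the replicate block for library they were 15, 26, 21 and 22, and with DESeq2 16, 29, 24 and 22. Leaving out each library in turn gave 13 to 17, 26 to 28, 21 to 27 and 17 to 25. No paired analysis was possible between conditions because each has 1 library. Of the class counts, only the first moved by over 1.5 times, to 10 without cells that held UMIs of non-epithelial markers, a setting that tested 30 members in place of 38. Over the 3 conditions in listed order, the progenitor-like counts were 2, 5 and 4. At a minimum of 100 UMIs, which tests fewer members, they were 0, 2 and 1. Gates with limits at 2 times the main ones gave 1 for WT-RANKL-Ab and 8 for Cd40-/- Control, gates at 0.5 times gave 5 in WT-RANKL-Ab, and a mean over cells gave 4 there. The Ccl21a-high counts of 7, 13 and 16 became 4, 5 and 5 without cells with non-epithelial marker UMIs, the first became 3 at 100 UMIs, and the last became 10 within cluster 4. The cause of these shifts was otherwise not tested. Of the single-gene values 8 turned their sign. Without cells with non-epithelial marker UMIs, progenitor-like Col1a1 had a fitted value of -3.39 against Ccl21a-high and -1.08 against cTEC-like cells, and with Rgs5 and Lyz2 allowed -1.25 against Ccl21a-high, values that rest on 0, 0 and 3 progenitor-like UMIs and are no bounds. Fbln2 between Ccl21a-high and Aire+ cells was 0.0910 with Rgs5 and Lyz2 allowed. Nid1 in Ccl21a-high cells of WT-RANKL-Ab was 0.34 and Col1a2 in Cd40-/- Control -1.13 in cells without those markers, and Col1a2 was -0.21 for Cd40-/- Control and -0.32 for Cd40-/- RANKL-Ab without Ccl21a-high cells over the progenitor limit. The settings with shared barcodes, Rgs5 and Lyz2, the progenitor limit and cluster 4 were added after the data were seen. Depth limits members under about 10 CPM in progenitor-like cells, where 3 UMIs in WT-Control equal 3.20 CPM.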

Other observations

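Shares of single cells with a UMI were read beside the sums. Thinned to 1000 UMIs a cell, Col6a1 was seen in 25.7% of Ccl21a-high mTEC-like, 9.61% of progenitor-like, 1.15% of cTEC-like and 1.54% of thymocyte-like cells, the last taken as a background level. Tnc was seen in 28.6% of cTEC-like, 15.7% of Ccl21a-high and 13.7% of progenitor-like cells, against 3.34% of thymocyte-like cells. Fn1 was seen in 5.65%, 3.24% and 4.38% of the same classes, against 1.16%. Timp3, an inhibitor of metalloproteinases held in the matrix, was broad, at 22.0% of Aire+, 21.1% of Ccl21a-high, 18.0% of progenitor-like and 14.0% of cTEC-like cells, against 3.47%. Matn1 was seen in 4.07% of Ccl21a-high and 1.63% of Aire+ cells, in 0.153% of cTEC-like cells, below the 0.257% of thymocyte-like cells, and in none of 1165 progenitor-like cells.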
